A study of Strophostyles helvola with 12 samples.

Results

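Roots of the sand bean *Strophostyles helvola*, a wild legume, were compared between a genotype collected on a beach in North Carolina (Beach) and a genotype collected inland in Missouri (Inland). A set of 109 genes, of 27191 counted, was selected on measured expression: mean levels differed at least 2-fold between salted and watered Inland roots, watered Beach roots already sat on the salt-treated side of watered Inland roots, and salted and watered Beach roots differed by less than 1.5-fold. In 42 of them expression was higher in salted than in watered Inland roots, and the Beach control was above the Inland control. These are called the higher genes. In the other 67, the lower genes, expression was lower in salted than in watered Inland roots, and the Beach control was below the Inland control.

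The 12 libraries fell into 4 groups of 3 replicates. Beach control and Inland control plants received water, Beach treatment plants received 400 mM NaCl and Inland treatment plants 200 mM NaCl, in each case 50 mL per day on soil, and the labels give the plants as 10-d seedlings. Each place of origin is represented by 1 genotype, and the salt dose differed along with the genotype, so that dose and genotype cannot be told apart in any comparison of the treated groups. Each replicate was a pool of whole roots of 3 plants, of which 1 was taken at 3 h, 1 at 24 h and 1 at 7 d, so that each library mixes an early and a late response.

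Roots meet soil salt first. Sodium and chloride lower the water potential around the root and later accumulate in the shoot, and plants respond with osmolyte synthesis, ion transport and compartmentation in the vacuole, detoxification of reactive oxygen and slower growth, in part through the hormone abscisic acid. Plants of saline habitats are often described as holding part of this response without stress, which is the pattern that the selection looks for. The table pairs the identifiers, which are those of the related common bean *Phaseolus vulgaris*, with no gene names, and no annotation was used here, so genes are given by identifier and no function, pathway count or sequence is attached to them. Root markers were not checked for the same reason. A change in bulk tissue does not tell apart fewer cells of a type and less RNA per cell.

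Expression is given as CPM, the count of a gene scaled to the total of its library, and group ratios as ratios of mean CPM + 0.5. CPM is not divided by gene length, so levels are compared within a gene only. Genes entered the selection if the largest of their group values was at least 5 and the mean of the 4 values below 800, which 17339 genes met. Of these, 1382 changed at least 2-fold in Inland, 746 up and 636 down. The Beach control lay 1.5 to 8-fold from the Inland control on the salt-treated side in 459 of the 1382. Most of the 459 still responded in Beach: 334 moved a further 1.5-fold or more in the Inland direction (160 induced and 174 repressed), 16 moved back, and the remaining 109 are the set described here.

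Seen the other way, 249 of the Inland-responsive genes changed by less than 1.5-fold in Beach. Beside the 109, the group held 119 genes whose controls differed by less than 1.5-fold (72 induced and 47 repressed), 16 genes whose Beach control lay on the opposite side of the Inland control (7 and 9), and 5 genes beyond the 8-fold limit (1 and 4). Controls on the salt-treated side thus outnumbered controls on the opposite side. Both ratios of the selection use the same 3 Inland control libraries, so that a high or low Inland control value pushes them in the same direction. With separate Inland control libraries for each ratio the selection gave 75, 138 or 98 genes on the salt-treated side and 23, 21 or 23 on the opposite side, for replicate 1, 2 or 3 used for the Inland change.

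The values that follow for these genes describe what they were chosen by, and no test is drawn from them. The higher genes had a median log2 ratio of 1.2 for Inland treatment over Inland control (2.29-fold, at most 9.88-fold) and of 0.87 for Beach control over Inland control (1.83-fold, at most 4.2-fold). Their median log2 ratio of Beach treatment to Beach control was 0.20, and that of Beach treatment to Inland treatment was -0.14. Over all 17339 genes the same 4 medians were 0.08, 0.07, -0.05 and -0.04. In the lower genes they were -1.22 (a 2.34-fold reduction, at most 9.35-fold), -1.17 (2.25-fold, at most 6.02-fold), -0.15 and -0.05.

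In these chosen genes the displacement of the Beach control differed between the 2 kinds, which describes the choice and tests nothing. Both ratios share the Inland control libraries. Their median SD of log2 CPM was 0.535 in the lower genes and 0.191 in the higher genes. Dividing the log2 displacement of the Beach control by the log2 Inland response gives the share of the Inland change that was present without salt. Its median was 0.704 in the higher genes (range 0.327 to 1.90) and 0.908 in the lower genes (0.376 to 2.27). The share reached 1 or more in 5 of 42 higher and 26 of 67 lower genes and stayed below 0.5 in 9 and 5. The Beach control was at least 2-fold from the Inland control in 14 higher and 42 lower genes, and at least 3-fold in 4 and 16. The mean of Beach treatment lay beyond that of Beach control, in the direction of the Inland change, in 32 of 42 higher and 42 of 67 lower genes.

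The libraries show how far this holds replicate by replicate. The 3 Inland treatment libraries did not overlap with the 3 Inland control libraries in 40 higher and 51 lower genes, which is 91 of 109, against 52.9% of all genes within the level limits. Beach control and Inland control libraries did not overlap in 38 higher and 45 lower genes (83 of 109, against 42.3%). For both the selection used the contrast, and nothing is read from the excess. Beach control and Beach treatment libraries were apart in 26 genes (14 higher and 12 lower, against 58.5%), a contrast that the selection also used.

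Against the salted Inland roots, the Beach control libraries were apart in 27 genes (against 51.2%). Of the higher genes 2 had all Beach control libraries above, 12 had them below and 28 overlapped. Of the lower genes 8 were above, 5 below and 54 overlapped. Short of the salted Inland libraries were thus 12 higher and 8 lower genes, overlap does not show equal levels, and the selection limited both groups relative to Inland control. Beach treatment and Inland treatment libraries were apart in 34 genes (against 58.3%): in the higher genes 5 were above and 15 below, in the lower genes 7 and 7.

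**Figure D1:**
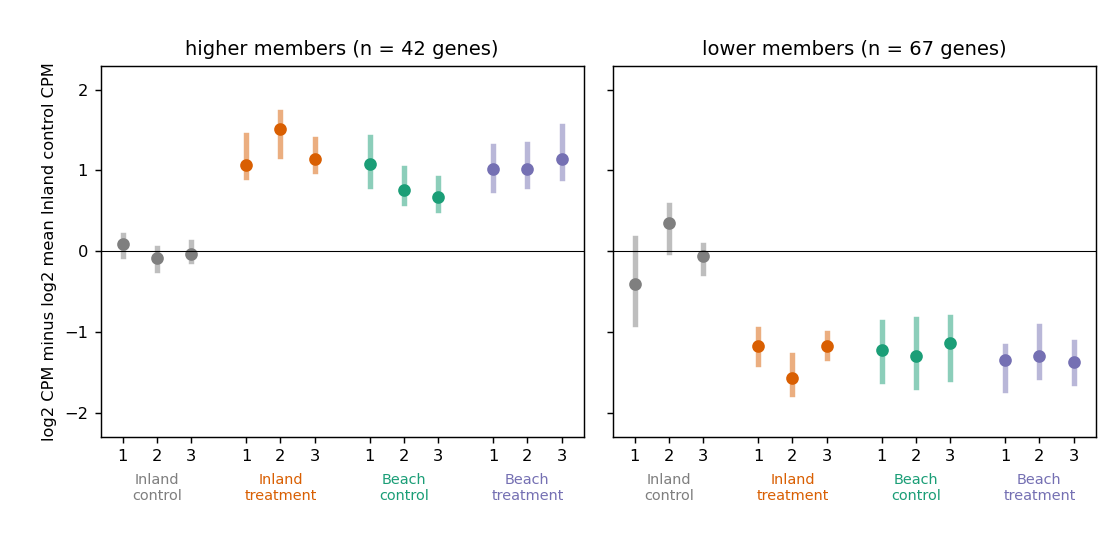
Points are medians over the 42 higher genes (left) and the 67 lower genes (right) of log2 CPM in each library minus log2 of the mean Inland control CPM, and bars run from the lower to the upper quartile. The Beach control libraries 1, 2 and 3 lie at 1.07, 0.75 and 0.67 in the higher genes, below or level with the Inland treatment libraries, and at -1.22, -1.30 and -1.13 in the lower genes, while Inland control replicates 1 and 2 of the lower genes stand at -0.40 and 0.35.

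Among the higher genes, Phvul.008G087600 had the strongest combination of both changes by the smaller of its log2 ratios. It was at 23.6, 15.6 and 22.3 CPM in the Inland control libraries and at 76.1, 84.1 and 69.5 CPM in Inland treatment. The Beach control libraries held 73.9, 63.7 and 67.7 CPM and the Beach treatment libraries 86.6, 89.0 and 67.9 CPM. All 9 libraries outside Inland control stood close together, well above the 3 Inland controls. The Inland change was 3.67-fold and the Beach control 3.28-fold above Inland control, with fitted log2 differences of 1.82 ± 0.16 and 1.67 ± 0.15 (SE, edgeR), against 0.27 ± 0.12 for salt in Beach.

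Phvul.002G275200 showed the same arrangement at a lower level. Its Inland control libraries were narrow, at 7.90, 8.94 and 9.65 CPM, and so were those of Inland treatment at 25.7, 27.6 and 28.4 CPM. In Beach control it read 32.0, 18.7 and 19.9 CPM, and in Beach treatment 22.6, 29.0 and 26.2 CPM. Beach control replicate 1 was above the others of its group, and all 3 were at least 18.7 CPM against at most 9.65 CPM in Inland control. The ratios were 2.97-fold for Inland salt, 2.57-fold for the Beach control and 1.1-fold for Beach salt.

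In Phvul.009G058900 the Beach control went beyond the salted Inland level. Inland control gave 29.8, 34.2 and 31.2 CPM and Inland treatment 67.9, 78.2 and 74.9 CPM. Beach control reached 158, 96.1 and 104 CPM and Beach treatment 119, 160 and 152 CPM. The 4 groups thus formed 3 levels, with the Beach libraries all above the salted Inland libraries and overlapping with each other. The Beach control was 3.71-fold and Inland treatment 2.3-fold above Inland control, a share of 1.57.

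Phvul.009G237600 behaved alike with more scatter. The Inland control libraries were at 3.20, 0.829 and 1.78 CPM and the Inland treatment libraries at 3.81, 9.62 and 4.96 CPM. Beach control was at 6.77, 10.96 and 11.5 CPM and Beach treatment at 12.4, 14.2 and 14.1 CPM. Inland treatment overlapped with Beach control through its replicate 2, and the Beach control ratio of 4.2-fold was the largest among the higher genes. In Phvul.003G201100 the Inland control libraries (36.6, 39.2 and 31.7 CPM) lay below all others, but the Beach control mean of 103 ± 47.0 CPM (SD, n = 3) rested in part on replicate 1, at 157 CPM against 77.0 and 75.1 CPM. Its ratios were 2.53-fold for Inland salt and 2.85-fold for the Beach control.

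**Figure D2:**
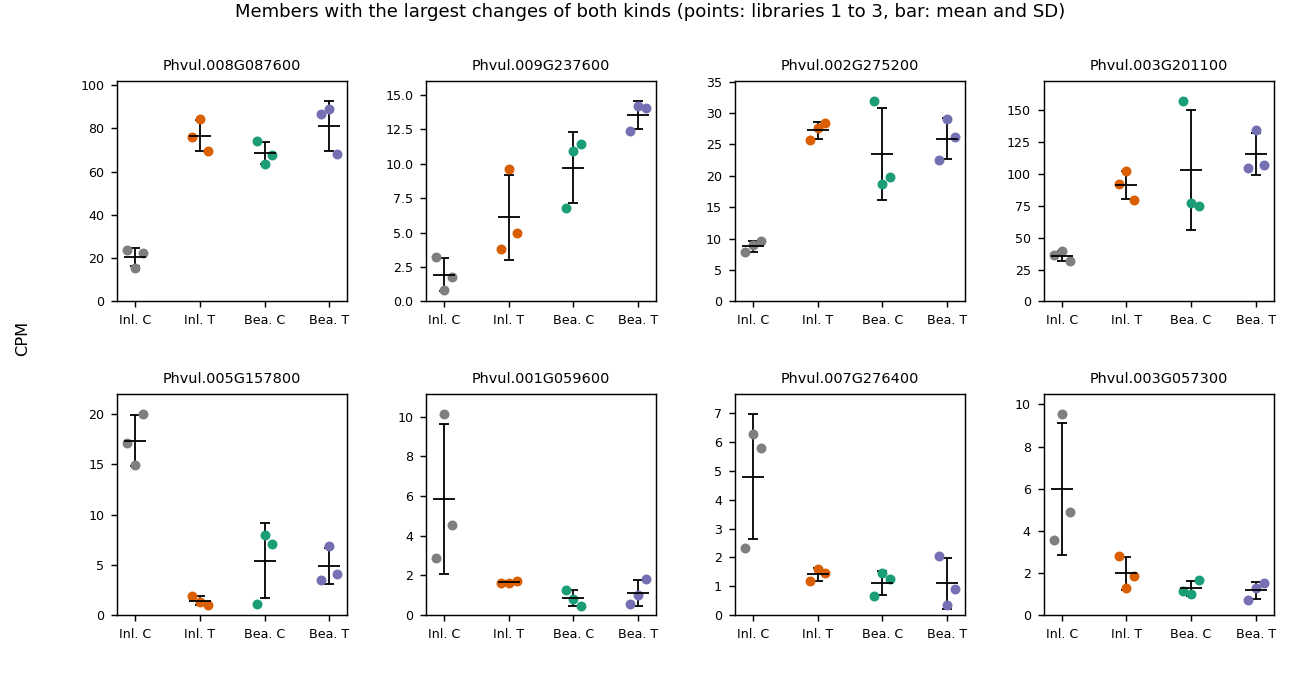
CPM of the 4 higher genes (top) and the 4 lower genes (bottom) with the highest rank, one panel each, with Inl. C and Inl. T for Inland control and treatment and Bea. C and Bea. T for Beach control and treatment. Points are libraries 1 to 3 from left to right, and bars the mean and SD. Only genes whose Inland control libraries were apart from the other 3 groups were ranked, so each panel shows this by choice. Inland control differs from Inland treatment by 3.67-fold in Phvul.008G087600 and by 9.18-fold in Phvul.005G157800. In Phvul.005G157800 Inland treatment also lies below all Beach libraries except Beach control replicate 1. Beach control replicate 1 departs from its group in Phvul.003G201100.

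A further 5 higher genes were named by rank. Phvul.005G064700 was at 1.82 ± 0.467 CPM in Inland control, 5.42 ± 0.725 CPM in Inland treatment and 4.80 ± 1.61 CPM in Beach control (SD, n = 3). Its Beach treatment, at 7.37 ± 0.658 CPM, was 1.48-fold above Beach control with no overlap, close to the limit for a flat Beach response. Phvul.002G024000, at 1.48-fold, and Phvul.006G207300, at 1.44-fold, were also close to it, through Beach treatment replicate 3 at 17.1 and 19.8 CPM, and the Beach groups overlapped in the first of them only. Phvul.007G055900 was scattered in Inland treatment, with 2.80, 8.23 and 4.26 CPM, and Phvul.001G044700 was steady in Beach control, with 5.25, 5.40 and 5.78 CPM against 3.08, 1.69 and 2.64 CPM in Inland control.

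The 3 higher genes of the highest level changed less. Phvul.011G067000 was at 180, 147 and 139 CPM in Inland control and 255, 346 and 411 CPM in Inland treatment, and at 315, 236 and 212 CPM in Beach control and 303, 321 and 286 CPM in Beach treatment. Its Beach control was 1.63-fold above Inland control, a share of 0.635. Phvul.005G044500, with 117, 112 and 92.8 CPM in Inland control, 149, 171 and 164 CPM in Beach control and 219, 201 and 203 CPM in Beach treatment, lay just inside the limit of 1.5-fold, and its 2 Beach groups did not overlap at a ratio of 1.28. In Phvul.005G090200 the Beach control read 205, 108 and 122 CPM and the Beach treatment 137, 145 and 144 CPM, a ratio of 0.978, so that only replicate 1 of Beach control reached the Inland treatment libraries of 149, 192 and 184 CPM.

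A few higher genes had a strong Inland response of which the Beach control held little. Phvul.002G195800, named after its values were seen, went from 14.9, 9.56 and 7.77 CPM in Inland control to 96.1, 101 and 135 CPM in Inland treatment, the largest induction of the set at 9.88-fold. In Beach it remained at 37.0, 20.5 and 12.3 CPM without salt and 37.5, 19.0 and 25.1 CPM with it. The share was 0.327, the lowest of the 109, all 6 Beach libraries were below all Inland treatment libraries, and Beach control overlapped with Inland control. Phvul.009G175600 was alike, with 6.25, 5.77 and 7.59 CPM in Inland control, 26.4, 39.2 and 27.0 CPM in Inland treatment and 13.9, 10.3 and 10.4 CPM in Beach control. The Beach control was 1.71-fold and the salted Inland roots were 4.46-fold above Inland control.

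The lower genes were led by Phvul.005G157800. Its Inland control libraries held 17.1, 15.0 and 19.98 CPM and its Inland treatment libraries 1.94, 1.36 and 1.04 CPM. Beach control was at 1.12, 8.004 and 7.13 CPM and Beach treatment at 3.52, 6.88 and 4.14 CPM. Only Beach control replicate 1 reached the salted Inland level, and the other 5 Beach libraries lay between the Inland groups. Inland treatment was 9.18-fold below Inland control (fitted log2 difference -3.66 ± 0.23, SE), and the Beach control was 3.02-fold below Inland control (-1.75 ± 0.52).

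In Phvul.010G142400 the Beach control was lower than the salted Inland roots. Inland control gave 8.57, 17.7 and 11.96 CPM and Inland treatment 5.03, 3.93 and 5.01 CPM, while Beach control gave 3.85, 2.86 and 2.84 CPM and Beach treatment 3.06, 3.97 and 4.62 CPM. The Beach control was 3.60-fold and Inland treatment 2.57-fold below Inland control. Phvul.002G025300 took this farther, with 6.72, 5.62 and 5.66 CPM in Inland control, 2.60, 1.53 and 2.23 CPM in Inland treatment and 0.528, 0.699 and 1.02 CPM in Beach control. The Beach treatment libraries, at 0.652, 0.514 and 0.270 CPM, overlapped with Beach control, and the gene was 5.2-fold lower in Beach control than in Inland control, with as few as 9 counts in a library.

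Lower genes with narrow Inland controls showed the arrangement to different degrees. Phvul.006G080700 was at 28.1, 27.3 and 25.6 CPM in Inland control and 12.3, 8.26 and 10.98 CPM in Inland treatment. Its 6 Beach libraries ran from 11.8 to 14.9 CPM, with 11.9, 14.9 and 14.3 CPM in Beach control and 11.8, 13.1 and 13.1 CPM in Beach treatment. The salted Inland roots overlapped with Beach roots without salt only through replicate 1 of both groups, and the share was 0.721. Phvul.001G155200 had 95.01, 130 and 115 CPM in Inland control against 36.3 to 65.3 CPM in all 9 other libraries, with a share of 1.01. Phvul.003G177700 was at 82.8, 90.7 and 104 CPM in Inland control and at 38.1, 61.9 and 50.6 CPM in Beach control, 1.84-fold lower. Its Inland treatment libraries held 39.4, 34.7 and 33.0 CPM. Only Beach control replicate 1 reached them, and the share was 0.643.

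The remaining lower genes named by rank had either few counts or scattered Inland controls. Phvul.001G059600 read 2.91, 10.1 and 4.54 CPM in Inland control against 0.854 ± 0.407 CPM in Beach control (SD, n = 3), 4.70-fold lower. Without Inland control replicate 2 it was 3.12-fold lower, and its Inland reduction of 2.94-fold became 1.96-fold, short of the limit for selection. Phvul.003G057300 read 3.58, 9.53 and 4.87 CPM, and Phvul.008G232600 read 4.08, 7.90 and 5.97 CPM, with Beach controls 3.66-fold and 3.11-fold below these means. In these 3 genes Inland control replicate 2 was the highest library. Without it the Inland reduction of Phvul.003G057300 went from 2.61-fold to 1.90-fold, also short of the limit. Phvul.007G276400, at 2.32, 6.27 and 5.81 CPM in Inland control, had as few as 10 counts in a library and a Beach control 3.27-fold lower. In Phvul.009G197800 it was replicate 1 that stood out, at 53.1 CPM against 24.2 and 23.8 CPM, and the Beach control, at 5.41, 13.6 and 10.2 CPM, was 3.34-fold lower. Without Inland control replicate 1 its Inland reduction went from 2.58-fold to 1.85-fold.

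Of the 3 lower genes highest in CPM, the first and second had Beach ratios near the limit for a flat response. Phvul.002G038600 was at 326, 442 and 506 CPM in Inland control, 231, 204 and 193 CPM in Inland treatment, 214, 271 and 274 CPM in Beach control and 173, 169 and 178 CPM in Beach treatment. Beach treatment was below all Beach controls, at 0.685 of their level. Phvul.002G260100, with Inland controls of 171, 265 and 203 CPM and Beach controls of 130, 144 and 125 CPM, had a Beach ratio of 0.697 and was 1.6-fold lower in Beach control than in Inland control. Phvul.009G129500 was uneven within Beach control, at 50.1, 195 and 100 CPM, so that its 2.02-fold lower Beach control overlapped with the Inland control libraries of 277, 173 and 250 CPM. Without Beach control replicate 2 its Beach control was 3.09-fold lower, and the ratio of Beach treatment to Beach control went from 0.714 to 1.09.

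Replicates of the lower genes were unequal in Inland control. Inland control replicate 2 was the highest of its 3 libraries in 42 of the 67 genes and replicate 1 the lowest in 42, against 24.2% and 26.7% of all genes within the level limits. The order replicate 2 above 3 above 1, noticed in the values, held in 37 of the 67 lower and 5 of the 42 higher genes, against 13.4%, and replicate 2 was at least 2-fold above replicate 1 in 28 and 1, against 2.08%. The median SD of log2 CPM within Inland control was 0.535 in the lower genes, compared with 0.191 in the higher genes, 0.255 in Inland-repressed genes with similar controls and 0.107 over all genes. Without Inland control replicate 2 the selection gave 47 lower genes, 36 of them among the 67, and without replicate 1 it gave 101, of which 56 were among the 67.

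In the higher genes the uneven libraries were others. Beach control replicate 1 was the highest of its group in 26 of 42 genes, against 47.2% of all genes, and Inland treatment replicate 2 in 26, against 35.6%. This was not particular to the set: in the 72 Inland-induced genes with similar controls these libraries were highest in 41 and 50. The median share for the higher genes was 0.828, 0.648 and 0.573 when Beach control replicates 1, 2 and 3 were taken alone. Without Beach control replicate 1 there were 33 higher genes, and without Inland treatment replicate 2 there were 31. The lower genes had shares of 0.911, 0.988 and 0.903 for the 3 Beach control replicates.

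A core of 23 genes met the selection whichever of the 12 libraries was left out. This did not require libraries that were apart, and Beach control overlapped with Inland control in the higher gene Phvul.002G083600. The same held in the lower genes Phvul.001G037800, Phvul.002G203700, Phvul.002G203800, Phvul.006G154100, Phvul.008G179700 and Phvul.010G090000. In Phvul.001G037800 Inland treatment overlapped with Inland control as well. The 9 higher genes of this core were Phvul.001G044700, Phvul.002G083600, Phvul.002G224900, Phvul.002G275200, Phvul.005G027100, Phvul.005G031200, Phvul.008G087600, Phvul.009G058900 and Phvul.009G175600. Phvul.005G031200 was the steadiest of them within Beach, at 5.22, 5.495 and 5.81 CPM without and 4.85, 6.06 and 5.195 CPM with salt, against 3.14, 2.31 and 2.61 CPM in Inland control and 6.19, 6.65 and 6.80 CPM in Inland treatment. Phvul.005G027100 reached 75.6, 88.9 and 95.1 CPM in Inland treatment but only 51.4, 37.7 and 50.8 CPM in Beach control. The 14 lower genes of the core included Phvul.006G080700, Phvul.001G155200, Phvul.003G177700, Phvul.002G025300 and Phvul.010G142400, described above, and Phvul.006G151500, at 5.14, 5.68 and 8.68 CPM in Inland control and 1.86, 2.89 and 2.48 CPM in Beach control.

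Within the lower core, 5 genes shared a profile over all 12 libraries. Phvul.002G203800 was at 36.6, 44.6 and 13.9 CPM in Inland control, 8.99, 11.6 and 13.0 CPM in Inland treatment, 16.8, 8.89 and 12.2 CPM in Beach control and 10.7, 23.0 and 10.6 CPM in Beach treatment. Its neighbour Phvul.002G203700 was at 18.1, 19.5 and 7.44 CPM, 4.52, 5.83 and 6.68 CPM, 8.14, 4.73 and 6.17 CPM, and 5.18, 11.7 and 4.56 CPM in the same order. Both were lowest in Inland control replicate 3 and highest in Beach treatment replicate 2 within these groups. Phvul.006G154100 on another chromosome repeated the pattern, with 28.8, 35.7 and 11.1 CPM in Inland control and 8.70, 17.8 and 7.48 CPM in Beach treatment, and so did Phvul.001G037800 and Phvul.008G179700.

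The profile was then counted over the table. Inland control replicates 1 and 2 at least 2-fold above replicate 3, together with Beach treatment replicate 2 at least 1.5-fold above replicates 1 and 3, was met by 7 lower genes, no higher gene and 11 of the 17339 genes (0.0634%). Adding the order of Beach control (replicate 1 above 3 above 2) and of Inland treatment (1 below 2 below 3) left 6 genes, all of them lower genes of this set, with Phvul.003G142600 as the sixth. The profile was defined after the values of 5 of them were seen, so the count describes them and tests nothing. These genes lie on chromosomes 1, 2, 3, 6 and 8 by their identifiers, and whether they share sequence was not tested.

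**Figure D3:**
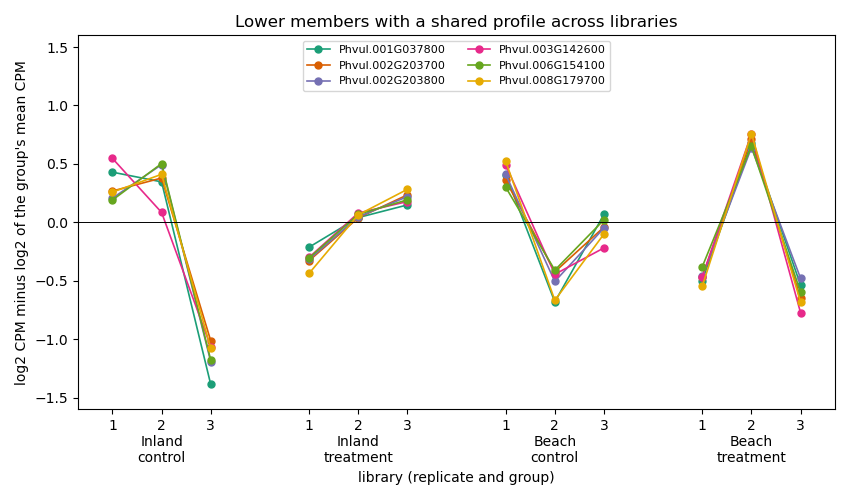
Lines join the 3 libraries of a group for each of 6 lower genes, and the y axis is log2 CPM minus log2 of the group's mean CPM, with 0 at the group mean. The lines nearly coincide, with Inland control replicate 3 lowest, Beach control replicate 1 highest and Beach treatment replicate 2 highest in every gene, as in Phvul.002G203800 with 13.9, 16.8 and 23.0 CPM in these libraries.

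Neighbouring identifiers accounted for further pairs. The table lists Phvul.002G203700 and Phvul.002G203800, Phvul.006G027800 and Phvul.006G027900, and Phvul.010G090000 and Phvul.010G090100 next to each other, all of them lower genes, and no longer run occurred. Within 3 places there were 7 pairs, 6 of lower and 1 of higher genes, and no pair of mixed direction. Phvul.006G027900 read 36.2, 115 and 71.7 CPM in Inland control, 37.6, 27.2 and 35.5 CPM in Inland treatment, 24.1, 25.5 and 24.1 CPM in Beach control and 30.1, 35.3 and 31.2 CPM in Beach treatment. Phvul.006G027800 followed it at 13.3, 39.7 and 23.8 CPM in Inland control and 9.54, 7.97 and 7.39 CPM in Beach control. The Beach controls of this pair were 2.98-fold and 2.96-fold below Inland control, and their means were also below those of Inland treatment. In Phvul.006G027900 the Inland treatment libraries overlapped with Inland control. Without Inland control replicate 2 its Inland reduction went from 2.202-fold to 1.605-fold, short of the limit for selection. That of Phvul.006G027800 went from 2.335-fold to 1.704-fold, also short of it.

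The pair on chromosome 10 had the same order of Inland controls. Phvul.010G090100 was at 36.6, 107 and 69.4 CPM and Phvul.010G090000 at 17.1, 47.9 and 31.5 CPM, with Beach controls of 36.1, 26.5 and 24.0 CPM and of 18.1, 11.1 and 10.9 CPM. In both, Inland control replicate 1 was at about the level of Beach control replicate 1, so that the lower Beach control rested on Inland control replicates 2 and 3. Without Inland control replicate 2 the Inland reduction of Phvul.010G090100 went from 2.65-fold to 1.98-fold. The only pair of higher genes, Phvul.005G061800 and Phvul.005G062100, was at 14.9 ± 2.48 and 5.13 ± 0.219 CPM in Inland control, 52.1 ± 5.83 and 16.4 ± 1.78 CPM in Inland treatment and 24.5 ± 5.58 and 8.65 ± 2.06 CPM in Beach control (SD, n = 3). The genes between the members of a pair did not all move with them: Phvul.002G038700 was near selection, with log2 ratios of -1.03, -0.73 and -0.75 for Inland salt, Beach control and Beach salt, whereas Phvul.005G148200, between 2 lower genes, had log2 ratios of 0.29, 1.05 and -1.49. Without strand in the counting, overlapping genes cannot be told apart, and near-identical neighbours could exchange reads.

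**Figure D4:**
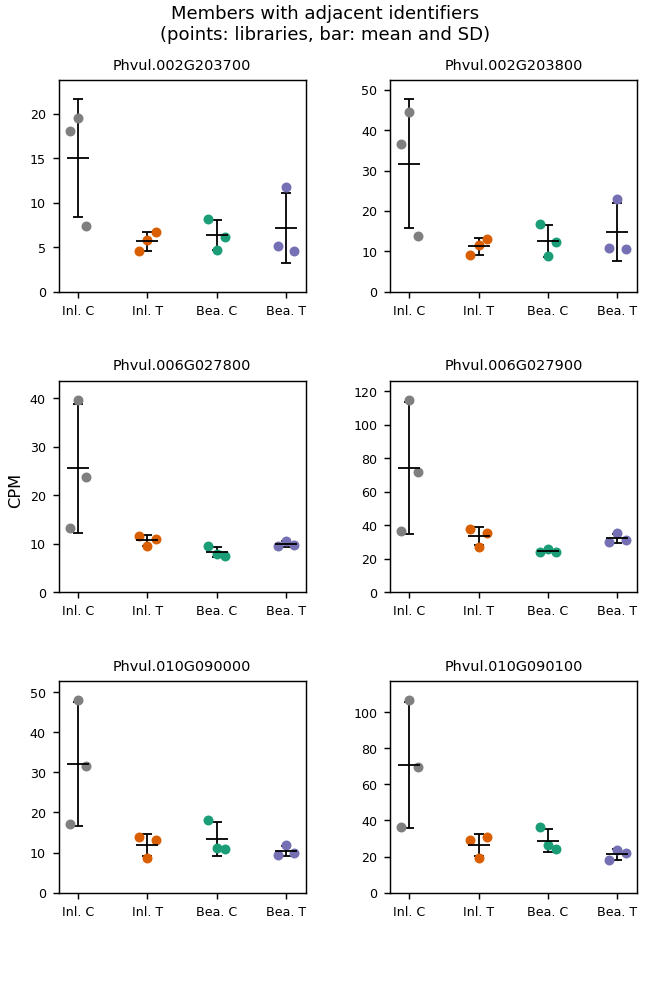
CPM of the 3 adjacent pairs of lower genes, with a pair per row, points for libraries 1 to 3 from left to right and bars for the mean and SD. Inl. C and Inl. T stand for Inland control and treatment, and Bea. C and Bea. T for Beach control and treatment. Both genes of a pair follow the same order of Inland control libraries, with replicate 3 lowest in the first pair (7.44 and 13.9 CPM) and replicate 1 lowest in the others.

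By identifier, the 109 genes were spread over all 11 chromosomes. Chromosome 2 held 19 of them (17.4%, against 13.0% of the 17339 genes within the level limits) and chromosome 5 held 12 (11.01% against 6.604%). Chromosome 11 held 2 (1.83% against 7.01%), and the 6 genes on chromosome 10 were all lower genes.

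The size of the set depends on limits that cut through continuous values. Nearest to the Inland limit were Phvul.001G132200 inside, at 2.001-fold, and Phvul.006G103600 outside, at 1.99-fold lower. The Beach control limit passed between Phvul.005G044500 at 1.503-fold and Phvul.002G306100 at 1.49-fold, and the upper limit between Phvul.003G010400 at 6.02-fold lower and Phvul.006G116900 at 8.36-fold higher. For the flat Beach response Phvul.005G061800 was inside, at 1.496-fold, and Phvul.008G268600 outside, at a ratio of 0.664. The lowest largest mean inside was 4.56 CPM, in Phvul.001G095600, against 4.47 CPM in Phvul.001G049100 outside.

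The genes on either side of the upper limit differed in how their Beach controls compared with the salted Inland libraries. Phvul.003G010400 was at 37.5, 78.5 and 63.6 CPM in Inland control, 17.2, 17.4 and 46.0 CPM in Inland treatment and 12.2, 9.43 and 6.90 CPM in Beach control, all below the salted Inland libraries, and its share of 2.27 was the highest of the set, with an Inland reduction of 2.2-fold that became 3.38-fold without Inland treatment replicate 3. Phvul.006G116900, left out by the limit of 8-fold, was at 15.2, 17.2 and 11.4 CPM in Inland control and 205, 98.8 and 74.6 CPM in Beach control, and overlapped with the Inland treatment libraries of 83.7, 88.5 and 54.2 CPM.

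The edgeR quasi-likelihood test over all genes was run beside the selection, with genes called where the change was 2-fold or more and the adjusted p (Benjamini-Hochberg) was 0.05 or less. Each of these contrasts entered the selection, and the counts are given without reading support from them. The filter on low counts was passed by 88 of the 109 genes among the Inland libraries, 84 among the Beach libraries and 94 among all. For Inland treatment against Inland control 32 of the 36 higher genes tested were called up (3.38% of all genes tested) and 45 of 52 lower genes down (4.10%). For Beach control against Inland control 10 of 40 higher genes were called up (2.58%) and 31 of 54 lower genes down (3.77%). Without Inland control replicate 2 the 41 calls of this contrast fell to 24. Called in both were 7 higher and 28 lower genes. Most displacements of the higher genes were under 2-fold, and without the limit on the fold change 75 of the 94 genes were called for the controls, against 25.9% of all genes tested.

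For Beach treatment against Beach control none of the 84 genes tested was called by edgeR's quasi-likelihood test, its exact test or DESeq2, against 12.5% of all genes, while 28 of the 84 had an unadjusted p under 0.05, against 52.2%. Without the limit on the fold change 14 of them were called, against 43.6%. The selection required this small change. For Beach treatment against Inland treatment 10 of 94 genes were called, 6 higher and 4 lower, against 10.3%, with 5 without Beach treatment replicate 2 and 6 without Inland treatment replicate 3. Without the limit on the fold change there were 16, against 37.5%. The Beach minus Inland salt response was called below 0 in 17 of 40 higher genes (2.42%) and above 0 in 18 of 54 lower genes (2.51%).

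Over the whole series, libraries held 29205979 to 41330498 counts, and 41 of the 42 higher and 66 of the 67 lower genes had at least 10 counts in every library. Replicates of a group were closer to each other (distance 30.9 to 58.8 over log2 CPM) than to libraries of other groups (82.5 to 175), and Beach control replicate 1 stood farther from its group (58.8 and 57.6) than the other pair stood from each other (30.9). Scaling moved the split of the set: library totals gave 42 higher and 67 lower genes (38.5% higher), TMM factors 28 and 99 (22.1%) and DESeq2 size factors 25 and 105 (19.2%). Of the 42 higher genes 27 remained with TMM factors and 24 with DESeq2 size factors, while all 67 lower genes remained with both. The median log2 ratio of all genes was 0.08 for Inland salt and 0.07 for Beach control with library totals, and 0.01 and 0.00052 with TMM factors.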

How the data were processed

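RNA of whole roots was sequenced as single reads in 12 libraries, 3 in each of 4 groups. The authors trimmed the reads with Trimmomatic 0.36, mapped them with STAR on the genome of common bean (Pvulgaris_218_v1.0), and used featureCounts to count reads of unique alignment over exons. The STAR version is not given in the sources used here, and no strand option is named. The authors deposited the raw count per gene, without normalization. Reads that matched the other species poorly, or more than 1 place in it, are missing from the counts, and this loss can differ between genotypes.

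CPM was computed from column totals. Genes were selected by the ratios of mean CPM + 0.5 given in the report. The members, the gene lists and the naming rule were chosen with earlier results of these data known. Named genes had at least 10 counts in every library and Inland controls apart from the other 3 groups. They were ranked by the smaller of the absolute log2 ratios of Inland treatment and Beach control to Inland control, and the first 10 higher and 8 lower were taken. Added were the 3 highest in mean CPM of each kind, the genes nearest to each limit and members of runs of neighbours. Genes of the core, of the shared profile and extremes were named after their values were seen.

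Tests used edgeR 4.0.16 with TMM factors in R 4.3.3 on genes above 5 CPM in at least 3 libraries, within the genotype for its salt response and over all 12 libraries otherwise, and DESeq2 1.42.0 as an alternative. The steps were tested on simulated data. Tables and figures used Python 3.11.15. No replicate repeated another: between replicates, chi-square per degree of freedom was 11.6 to 59.4. Alternatives covered scaling, pseudocount, filter, limits, separate Inland controls, a replicate block and leaving out each library. Product lists were set up but not used, since identifiers are not paired with names.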

Additional observations from a re-analysis of the deposited data

Results flagged for a closer look

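The Beach minus Inland salt response was called below 0 in 17 higher genes and above 0 in 18 lower genes. The calls used the interaction contrast of edgeR's quasi-likelihood test (adjusted p of at most 0.05 and a difference of at least 2-fold). The Beach change was not always a smaller one in the Inland direction. With salt in Beach the lower gene Phvul.006G027900 rose (fitted log2 difference 0.41) and the higher gene Phvul.008G069400 fell (-0.54). The Inland change was called by edgeR in Phvul.008G069400 (1.75 ± 0.28, SE) but not in Phvul.006G027900 (-1.23 ± 0.40). In Phvul.006G027900 the Inland treatment and Inland control libraries overlapped, and its Inland reduction was 1.605-fold without Inland control replicate 2. The genes were selected for an Inland response and a flat Beach response, so these counts follow from the choice of genes. The dose was 200 mM in Inland and 400 mM in Beach.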

How the results depend on the processing

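The set had 109 genes, 42 higher and 67 lower. DESeq2 size factors gave 25 higher and 105 lower genes, a pseudocount of 2 gave 24 higher genes and 9 genes with Beach controls on the opposite side in place of 16, and separate Inland control libraries gave 37 lower genes with replicate 1 used for the Inland change. With replicate 2, an alternative chosen after seeing the data, 202 genes had similar controls in place of 119. An Inland limit of 3-fold left 14 genes (7 higher and 7 lower), and a Beach control limit of 2-fold left 56 (14 and 42). With 1 library left out at a time, the set ran from 87 to 156 genes, higher genes from 31 to 61, lower genes from 47 to 101, genes on the opposite side from 12 to 20 and genes with similar controls from 97 to 150, and the median share from 0.642 to 0.804 in higher and from 0.843 to 0.951 in lower genes. Members called by edgeR ran from 56 to 70 for Inland salt (77 with all libraries), from 24 to 49 for the controls (41), from 5 to 8 for the treated groups (10) and from 25 to 45 for the difference of the responses (35), with 0 for Beach salt. Without a limit on the fold change, 75 members were called for the controls, 14 for Beach salt and 16 for the treated groups, against 25.9%, 43.6% and 37.5% of all genes tested. The cause of these shifts was not tested.

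Libraries of the same number formed 18 pairs, which had correlations of deviations from -0.162 to 0.118, 3 of them above 0.1, so numbers were not taken as pairs. With the replicate block, members called were 65 for Inland salt, 37 for the controls, 0 for Beach salt, 9 for the treated groups and 30 for the difference. Of 528 ratios of the 33 named members under alternatives, 0 changed sign and 8 moved by 1 SD or more, all 8 with a pseudocount of 2. The 10 higher and 8 lower genes named by rank were required to have Inland controls apart from the other groups. Leaving out a library could therefore not change their sign, and nothing is read from it. Inland changes of many named genes did fall under 2-fold, as in Phvul.007G055900 (1.83-fold without Inland treatment replicate 2). Among genes named for high CPM these included Phvul.011G067000 (1.93-fold without Inland treatment replicate 3) and Phvul.002G038600 (1.84-fold without Inland control replicate 3). Phvul.002G260100 (1.79-fold without Inland control replicate 2) and Phvul.009G129500 (1.81-fold without Inland treatment replicate 2) did so too. Such genes then missed the limit for selection.

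Genes of few counts are limited most, since 0.5 CPM is added before ratios are formed, and 3 replicates per group set the error of all. Dose and genotype cannot be told apart, nor can genotype and the match of reads to the reference species.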
